A study of Homo sapiens with 4 samples.

Results

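The genes described here are 9 genes of the retinoic acid pathway: the retinoic acid receptors RARA, RARB and RARG, their dimer partners RXRA and RXRB, the cellular retinoic acid binding proteins CRABP1 and CRABP2, the retinol dehydrogenase RDH10 and the retinoic acid hydroxylase CYP26B1. They were chosen by function and found by their symbol in the deposited count table, which gave a row for 8 of the 9 among 24014 genes. RXRB had no row and was not analysed here. RNA-seq had been performed on SK-N-SH, a neuroblastoma line of human origin in which adrenergic and mesenchymal cells grow together. The cells were infected with lentivirus that carried the lncRNA AP1AR-DT (AP1AR-DT_OE, 2 libraries) or nothing in the same vector (control, 2 libraries). The control libraries have the title WT and the genotype wild type, and it is their treatment label that gives the vector with no insert. For AP1AR-DT_OE replicate 2 the title reads AC109347.1, a name of AP1AR-DT, while its genotype and treatment read AC109347.2. The title was followed. No label said whether the libraries of a group came from separate cultures, so the p-values measure the spread between these libraries, which may be technical.

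Retinoic acid is made from retinol in 2 oxidations. Retinol dehydrogenases such as RDH10 form retinal, aldehyde dehydrogenases of the ALDH1A family form retinoic acid, and CYP26 enzymes inactivate it. CRABP1 and CRABP2 hold retinoic acid in the cytoplasm, and CRABP2 can pass it to nuclear receptors. There a RAR and an RXR bind as a dimer to direct repeats of a hexamer in regulatory DNA, recruit corepressors without ligand and coactivators with it, and the RARB gene is itself a well-known target. Retinoic acid is used to differentiate neuroblastoma cells in culture and as a drug in the disease. No sample of these groups was labelled as treated with a retinoid.

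The DNA element through which these receptors are known to act is shown first, because 1 of the measured genes carries it beside a start site. Promoter windows of 250 bases before to 50 bases after a start site were taken from RefSeq (GRCh38.p14). They were searched on both strands for direct repeats of a hexamer that could be AGGTCA or any of the variants GGGTCA as well as AGTTCA as well as GGTTCA. Both copies could be any of these, with 1, 2 or 5 bases between them. Among 35116 windows, 0.131% held a repeat with a spacing of 1, 0.0399% with a spacing of 2 and 0.0883% with a spacing of 5, and 0.259% held any of them. The set of windows searched did not cover every gene. RDH10 had no window in it, so its promoter was not searched. Windows were found for 8 of the 9 genes, 15 in all, and 1 of these windows held a repeat. It belonged to RARB (chr3:25428013-25428312, plus strand). The repeat had a spacing of 5 and lay on the strand of the gene between 53 and 37 bases before the start site (chr3:25428210-25428226). The window is given whole, with both hexamers in capitals.
RARB: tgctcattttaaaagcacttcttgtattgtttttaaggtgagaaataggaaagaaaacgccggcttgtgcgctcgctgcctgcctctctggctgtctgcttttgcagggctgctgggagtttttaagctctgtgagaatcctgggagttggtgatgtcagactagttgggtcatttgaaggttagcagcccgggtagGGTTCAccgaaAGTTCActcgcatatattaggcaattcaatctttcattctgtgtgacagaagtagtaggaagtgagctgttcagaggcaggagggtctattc
Among 76 genes of a wider retinoid list with a window, 1 window held a repeat, that of CYP26A1 (chr10:93073803-93073819, read on the strand opposite to the gene), a retinoic acid hydroxylase gene that had no row in the count table. Set side by side, both repeats share the second hexamer.
RARB repeat: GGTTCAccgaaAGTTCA
CYP26A1 repeat: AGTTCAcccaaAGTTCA
A match of letters is a description of the sequence, and binding was not measured here. The absence of these letters says nothing of the other genes' control.

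The libraries held 21988065 to 26184599 counts each, and 19833 to 21280 genes had a count above 0. A read pair was taken as 4 counts, so these totals are larger than the number of read pairs. AP1AR-DT, listed under its symbol RP11-73K9.2 (chr4:112229561-112231596), had 3 and 18 counts in controls 1 and 2 against 680 and 1065 with AP1AR-DT_OE, a log2 fold change (Log2FC) of 6.63 ± 0.64 (SE; DESeq2 adjusted p = 3.64e-21). It was higher in 2 of 2 AP1AR-DT_OE libraries. Of the markers checked, 8 of 8 adrenergic genes with a row and 8 of 8 mesenchymal genes lay above the detection floor of 12 counts (3 read pairs) in at least 1 library. The adrenergic list held 9 genes, of which TH had no row. The adrenergic markers summed to between 24080 and 29800 normalized read counts (counts divided by the library's size factor) and the mesenchymal markers to between 114400 and 149600. HAND2 alone gave 12210 to 15660 of the adrenergic sum, and VIM alone gave 67920 to 93090 of the mesenchymal sum. The sums therefore do not measure the balance of the 2 cell states. No marker passed at an adjusted p under 0.05. Of the whole marker list 1 gene, the mesenchymal transcription factor gene PRRX1, passed at an unadjusted p of 0.000987 (DESeq2 adjusted p = 0.431), with 2432 and 14724 counts in controls 1 and 2 against 1131 and 2263 with AP1AR-DT_OE. Leukocyte markers (1 of 4 with a row), endothelial markers (1 of 3) and glial markers (2 of 4) summed to at most 6.17, 15.4 and 62.6 normalized counts. Epithelial markers (2 of 4, KRT18 and EPCAM) summed to between 1642 and 2705, of which KRT18 alone gave 1637 to 2702. EPCAM had 3 and 6 counts in controls 1 and 2, and 0 and 14 with AP1AR-DT_OE. In bulk RNA, fewer cells of a type and less RNA per cell cannot be told apart.

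RARG was the most abundant member per kilobase and CYP26B1 the least, over the length of each gene's longest transcript in a human annotation. Which transcripts were expressed is not known, so every comparison of levels between genes depends on that length. The mean over the 4 libraries, in normalized counts per kilobase, was 1155 for RARG, 881 for CRABP2, 626 for RDH10, 544 for RARA, 138 for CRABP1, 116 for RXRA, 37.4 for RARB and 2.56 for CYP26B1. This order held in 3 of the 4 libraries. Control 1 was the exception, with RARA above RDH10. Some neighbours in the order were not separated by the spread: the ranges over the libraries overlapped for RARG and CRABP2, for RDH10 and RARA, and for CRABP1 and RXRA. The other 4 pairs of neighbours did not overlap. The lowest CRABP2 level was 816 and the highest RDH10 level 730, and the lowest RXRA level was 75.9 against a highest RARB level of 61.4.

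**Figure D1:**
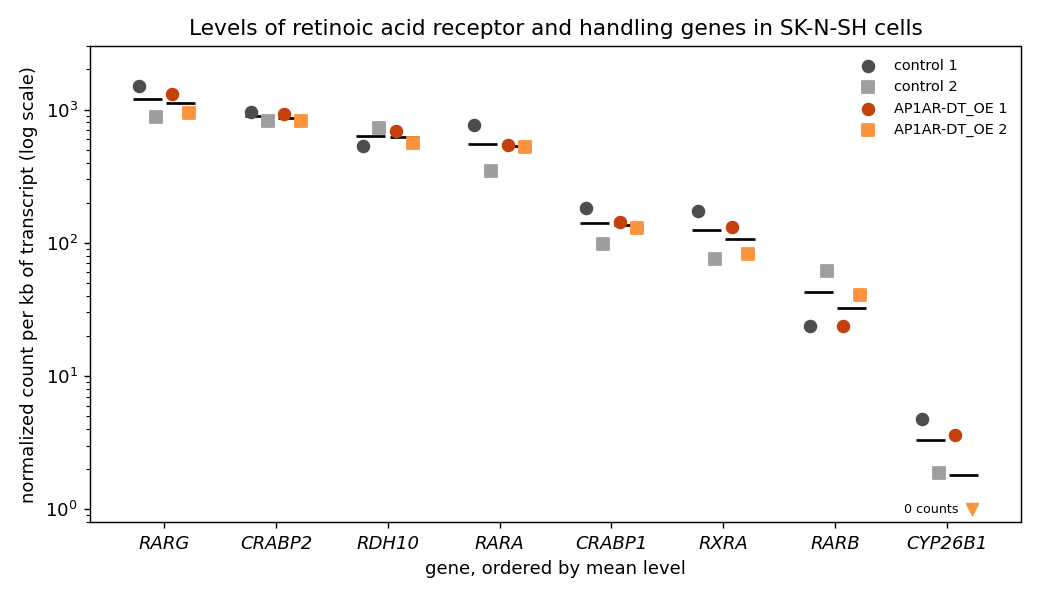
Levels of the 8 measured members in each library, in normalized counts per kilobase of transcript on a log axis, ordered by mean level; horizontal bars are group means (n = 2) and the triangle stands for 0 counts. RARG, CRABP2, RDH10 and RARA lie above the other 4 in all 4 libraries, RARB lies between 23.7 and 61.4, and CYP26B1 lies below 5.

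No member passed the test of a difference between AP1AR-DT_OE and control. At an adjusted p under 0.05, 0 of the 8 were called by DESeq2, against 0.137% of all genes (33 of 24014), and at an unadjusted p under 0.05 also 0 of 8, against 0.816% of all genes. With edgeR's quasi-likelihood test 0 of 8 passed at either threshold. The adjusted p was 1 for each of the 8. Before the correction for GC content described below, 0 of the 7 members whose mean normalized count reached 50 had groups that did not overlap. Of all such genes, 9.45% had groups that did not overlap. In the same values, both AP1AR-DT_OE libraries lay within the range of the 2 controls in 7 of these 7. That arrangement was shown by 50.3% of 13298 genes of that abundance. These fits leave room for sizeable differences, since the 95% intervals of the 7 Log2FC values reached from -1.67 to 1.25.

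All 8 Log2FC values lay below 0, where 54.4% of all genes did, with a median of -0.08 for the members and -0.03 for all genes. The sign was not shared by the replicate numbers. Between the libraries numbered 1, 6 of 8 members were lower in AP1AR-DT_OE, and between those numbered 2, 2 of 7 were. For 7 of the 7 members with a ratio in both numbers the ratios had opposite signs, against 61.7% of 13220 genes of that abundance. This follows where both AP1AR-DT_OE libraries lie within the range of the controls, and the smaller ratios of RARB (0.001) and CRABP2 (0.008) were near 0. With AP1AR-DT_OE replicate 2 left out, 2 of the 8 Log2FC values lay below 0, and with control replicate 1 left out, 3 did.

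**Figure D2:**
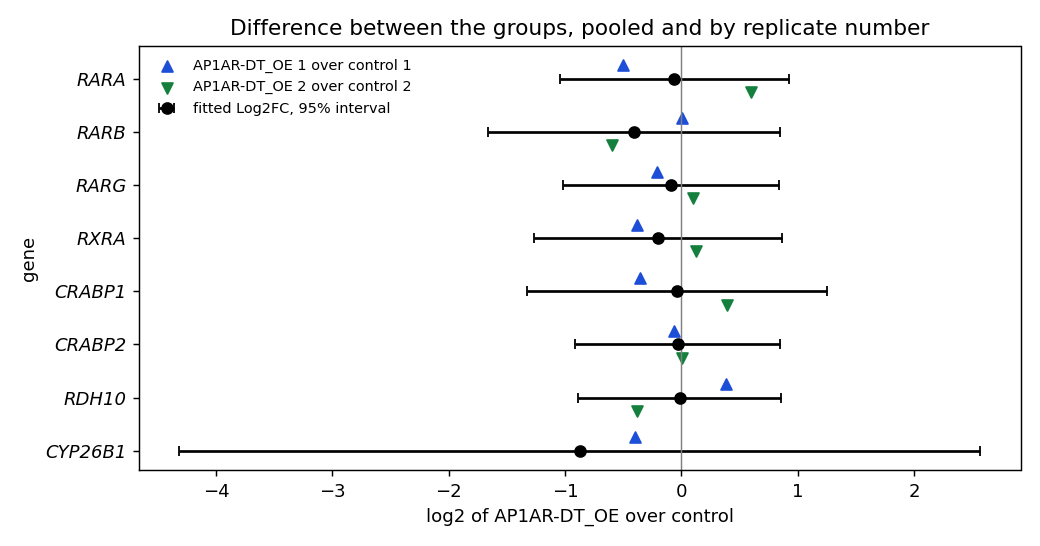
Difference between AP1AR-DT_OE and control for each member on the log2 scale. Black points are fitted Log2FC values with 95% intervals over 4 libraries, and triangles are the ratios of the libraries numbered 1 and of those numbered 2, with no error because each rests on 1 library per group; 7 of 7 members with both triangles have them on opposite sides of 0, and CYP26B1 has no ratio in number 2.

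RARA encodes the broadly expressed receptor RARα and lies at chr17:40309180-40357643. Normalized counts were 2508 in control 1, 1132 in control 2, 1775 in AP1AR-DT_OE 1 and 1708 in AP1AR-DT_OE 2. The controls held both the highest and the lowest value, and the AP1AR-DT_OE libraries lay close together between them. The means were 1820 ± 973 and 1742 ± 47.1 (SD, n = 2), and the Log2FC was -0.06 ± 0.50 (SE). Exons of the antisense gene RARA-AS1 overlap RARA. It had 105 to 166 counts per library, and whether counting used strand was not stated, so reads of the pair cannot be told apart.

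RARG, which encodes RARγ and lies at chr12:53210567-53232980, supplied most of the summed level of the 3 RAR genes. It took 65.6% and 68.3% of their normalized counts per kilobase in controls 1 and 2, and 69.7% and 62.5% in AP1AR-DT_OE 1 and 2. Its normalized counts were 4392, 2556, 3794 and 2736 in the same order. Both libraries numbered 1 were higher than both numbered 2, and the groups overlapped. The control mean was 3474 ± 1298 and the AP1AR-DT_OE mean 3265 ± 748 (SD, n = 2), with a Log2FC of -0.09 ± 0.47. The ratio of RARG to RARA per kilobase ran from 1.80 to 2.54 over the 4 libraries, with a control library at the top and an AP1AR-DT_OE library at the bottom.

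RARB, at chr3:25174332-25597932, encodes RARβ, and 1 of its several promoter windows held the repeat shown above. The counts cover the whole gene, so which start site was in use is not known. RARB was the lowest of the RAR genes. It took 1.03% and 4.79% of their summed level per kilobase in controls 1 and 2, and 1.27% and 2.70% with AP1AR-DT_OE. Normalized counts were 116 and 301 in controls 1 and 2, and 116 and 199 with AP1AR-DT_OE. The libraries numbered 1 agreed closely, and those numbered 2 were higher in both groups, 2.59-fold in control and 1.71-fold in AP1AR-DT_OE. The Log2FC was -0.41 ± 0.64 (95% interval -1.67 to 0.85, unadjusted p = 0.525 by DESeq2). After the correction for GC content described below, the 4 values were 166, 206, 152 and 163. The rise from library 1 to library 2 then came to 0.31 on the log2 scale in control and 0.10 in AP1AR-DT_OE, from 1.37 and 0.77 before.

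RXRA encodes RXRα, the shared partner of RARs and of several other nuclear receptors, and lies at chr9:134317098-134440585. Its normalized counts were 991 and 438 in controls 1 and 2 against 761 and 478 with AP1AR-DT_OE. As for RARG, the libraries numbered 1 were the higher ones. The means were 715 ± 391 and 620 ± 200.0 (SD, n = 2) with a Log2FC of -0.20 ± 0.54. The summed level of the RAR genes was 13.4 to 18.1 times that of RXRA per kilobase. RXRG, which encodes the RXR expressed mainly in muscle and brain, had 0, 0, 0 and 5 counts, all under the floor of 12, and with RXRB not analysed the total RXR level was not obtained.

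CRABP2, at chr1:156699606-156705816, was the steadiest member over the 4 libraries before the correction for GC content described below. Normalized counts were 997 and 843 in controls 1 and 2, against 952 and 848 with AP1AR-DT_OE, means of 920 ± 108 and 900 ± 73.9 (SD, n = 2). The Log2FC was -0.03 ± 0.45. CRABP1, at chr15:78340353-78348225, had 134, 72.5, 105 and 95.3 in the same order, with both AP1AR-DT_OE libraries between the controls and a Log2FC of -0.04 ± 0.66. CRABP2 exceeded CRABP1 by 5.30 to 8.31 times per kilobase, and control libraries held both ends of that range. After the correction, the log2 ratio of library 2 to library 1 for CRABP2 was 0.34 in control and 0.13 in AP1AR-DT_OE. For RARG it was -0.05 and -0.14.

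RDH10, at chr8:73294602-73325281, encodes the enzyme of the first oxidation. It had 2092 and 2892 normalized counts in controls 1 and 2, against 2721 and 2213 with AP1AR-DT_OE. The control numbered 2 was the higher of its group and the AP1AR-DT_OE library numbered 2 the lower of its own. The means were 2492 ± 565 and 2467 ± 359 (SD, n = 2), with a Log2FC of -0.01 ± 0.45, the value nearest to 0 among the members. The antisense gene RDH10-AS1 overlaps it and had at most 11 counts.

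CYP26B1, at chr2:72129238-72147862, encodes the enzyme that clears retinoic acid in many tissues. Its counts were 19 and 11 in controls 1 and 2, and 15 and 0 with AP1AR-DT_OE. The floor of 12 counts was passed in 1 library of each group, and the 0 allows a level of up to 11.9 normalized counts in that library, for counting error only. A difference was not detectable at this depth, and the fitted Log2FC of -0.87 ± 1.76 rests on that 0. CYP26A1 and CYP26C1, the other genes of the family, had no row.

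The log2 ratio between libraries of one group was larger in size than the fitted Log2FC for 7 of the 7 members with a mean of 50 or more in control and for 6 of the 7 in AP1AR-DT_OE. RARA was the exception, with -0.055 against -0.063. It ran with GC content over all genes. The log2 ratio of library 2 to library 1 had a Spearman correlation with the GC content of the longest transcript of -0.77 in control and -0.65 in AP1AR-DT_OE, across 13284 genes that share these libraries and are not independent replicates. Among these 7 members, RARB had the lowest GC content, 40.2%, and the highest ratio in both groups. RXRA, with 60.6% GC, had the lowest in both, -1.18 in control and -0.67 in AP1AR-DT_OE. RDH10, with 48.1%, had ratios of opposite sign, 0.47 in control and -0.30 in AP1AR-DT_OE, and these were 0.40 and -0.30 after the correction. RARA, with 61.9%, went from -1.15 to -0.39 in control and from -0.06 to 0.28 in AP1AR-DT_OE. After the correction, the ratios of AP1AR-DT_OE to control were of opposite sign in the numbers for 4 of the 7 members and lower in both numbers for 3, against 50.6% and 23.8% of 13220 genes. The 3 were RARB with -0.12 and -0.34, RARG with -0.06 and -0.16, and RXRA with -0.23 and -0.13. For RARB and RARG the groups then no longer overlapped. Corrected RARB values were 166 and 206 in controls 1 and 2 against 152 and 163 with AP1AR-DT_OE. Corrected RARG values were 3510 and 3395 against 3359 and 3044. The nearest values of the groups were close, 166 in control against 163 in AP1AR-DT_OE for RARB and 3395 against 3359 for RARG. The share of all genes without overlap was not computed after the correction, so this lack of overlap has no baseline here. Neither gene passed the test.

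**Figure D3:**
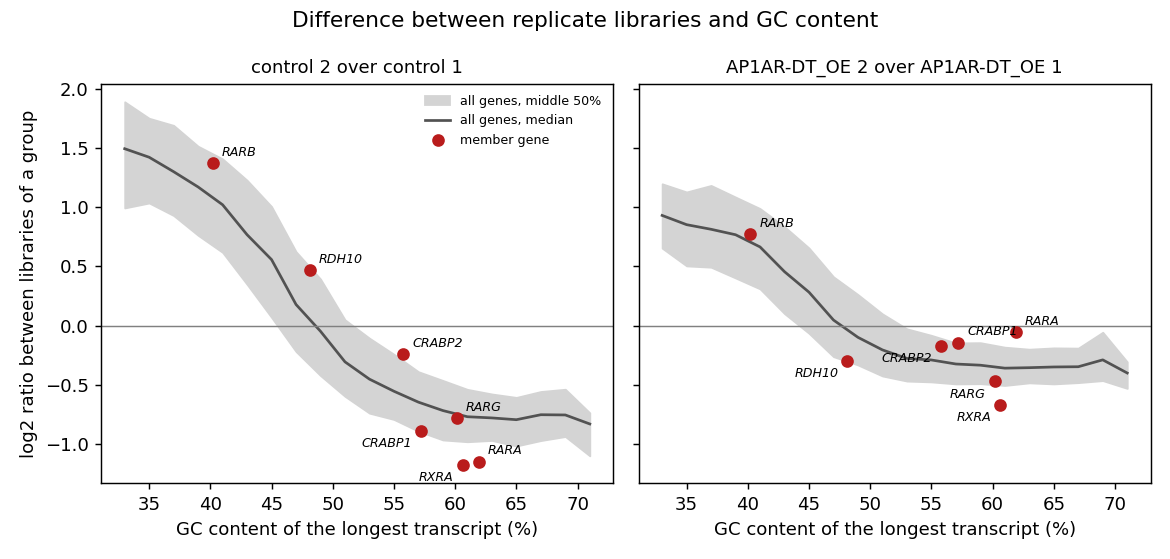
Log2 ratio of library 2 to library 1 in each group against the GC content of the longest transcript. The line and band are the median and middle 50% of all genes whose mean normalized count reached 50, in bins of 2 percentage points, and red points are the 7 members of that abundance; RARB sits high at the left and RXRA low at the right of both panels.

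The gene of the wider list with the profile most like a member was found as the smallest root mean square (RMS) difference over the 4 libraries between log2(normalized count + 1) values centred on their own mean, among 53 genes. RARG was nearest to RDH13 (0.07), RXRA to CREBBP (0.07), CRABP1 to PPARD (0.05), CRABP2 to SIN3A (0.07), RDH10 to NCOA2 (0.09) and RARB to NR2C1 (0.07). The median RMS difference over the list was 0.26 to 0.68 for these members. The GC contents of RARB and NR2C1 were 40.2% and 38.0%, and those of RARG and RDH13 60.2% and 61.0%. CRABP1 and PPARD had 57.2% and 59.0%. They lay further apart for CRABP2 and SIN3A (55.8% and 47.1%), RXRA and CREBBP (60.6% and 55.8%), and RDH10 and NCOA2 (48.1% and 43.4%). With 4 libraries whose main spread ran with GC content, the likeness is a description only.

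The wider list held other genes of retinoid uptake, metabolism and delivery, receptor partners and competitors, cofactors and target genes, and 77 of its 106 symbols had a row. No gene of it passed the test: 0 of 77 passed at an adjusted p under 0.05, against 0.137% of all genes, and 0 of 77 at an unadjusted p under 0.05, against 0.816%. Log2FC was above 0 for 34 and below 0 for 43, with a median of -0.08. In the 53 genes with a mean of at least 50, values ran from -0.73 to 0.52, and the groups did not overlap for 8 (15.1%, against 9.45% of all such genes).

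Upstream of the members, STRA6, the membrane receptor for retinol delivery, had normalized counts of 1605, 1117, 1489 and 1242 in controls 1 and 2 and AP1AR-DT_OE 1 and 2. DHRS3, which reduces retinal back to retinol and partners with RDH10, had 711, 531, 725 and 646. RDH14, another retinol dehydrogenase, had 273, 669, 318 and 521, with the libraries numbered 2 higher in both groups. DGAT1, which can esterify retinol for storage, had 960, 616, 844 and 796. BCO2, listed like DGAT1 under storage and release of retinol, had at most 12 counts.

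ALDH1A3 was the only retinal-oxidizing gene of the list above the floor. Its normalized counts were 112 and 285 in controls 1 and 2 against 233 and 210 with AP1AR-DT_OE, and the AP1AR-DT_OE values fell between the control values. The ratio of AP1AR-DT_OE to control was 1.06 on the log2 scale in number 1 and -0.44 in number 2, with a fitted Log2FC of 0.15 ± 0.61. ALDH1A2, a major retinoic acid-forming enzyme of the embryo, had 4, 8, 0 and 0 counts, all under the floor. Of the delivery genes outside the members, PPARD, a receptor to which FABP5 is reported to carry retinoic acid, had 2614, 1449, 2114 and 1754 normalized counts, while FABP5 had 5 to 15 counts per library.

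Among receptors that pair with RXR or compete for its elements, NR1H2, which encodes the oxysterol receptor LXRβ, had 5666, 3277, 5203 and 4025 normalized counts. THRA, the thyroid hormone receptor α gene, had 3809, 1819, 1498 and 2453, and its ratio of AP1AR-DT_OE to control was -1.35 in number 1 and 0.43 in number 2. The orphan receptor NR2F6 had 12467, 7391, 11707 and 8992. NR2F1, which encodes COUP-TF1, a repressor that binds similar repeats, had 1956, 2016, 1829 and 1799. Its AP1AR-DT_OE libraries were both below the controls, by a Log2FC of -0.13 ± 0.43 that did not pass the test.

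Of the cofactors with the highest levels, the corepressor PRAME had 6692 to 7556 normalized counts, and the coactivators CARM1, an arginine methyltransferase, and CREBBP, an acetyltransferase, had 3487 to 6924 and 1143 to 2656. For each of the 3 the groups overlapped. Their Log2FC values were 0.07, 0.07 and -0.08, each with an SE of 0.42 to 0.53. TGM2, the transglutaminase gene known to respond to retinoic acid, had the highest level per kilobase of the list, with 64990, 42105, 57757 and 48372 normalized counts and a Log2FC of -0.01 ± 0.45. EGR1, an immediate-early gene also listed as a target, had 812 and 19904 in controls 1 and 2 against 778 and 17357 with AP1AR-DT_OE, so that it differed between the numbers and had a Log2FC of -0.19 ± 2.19 between the groups.

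**Figure D4:**
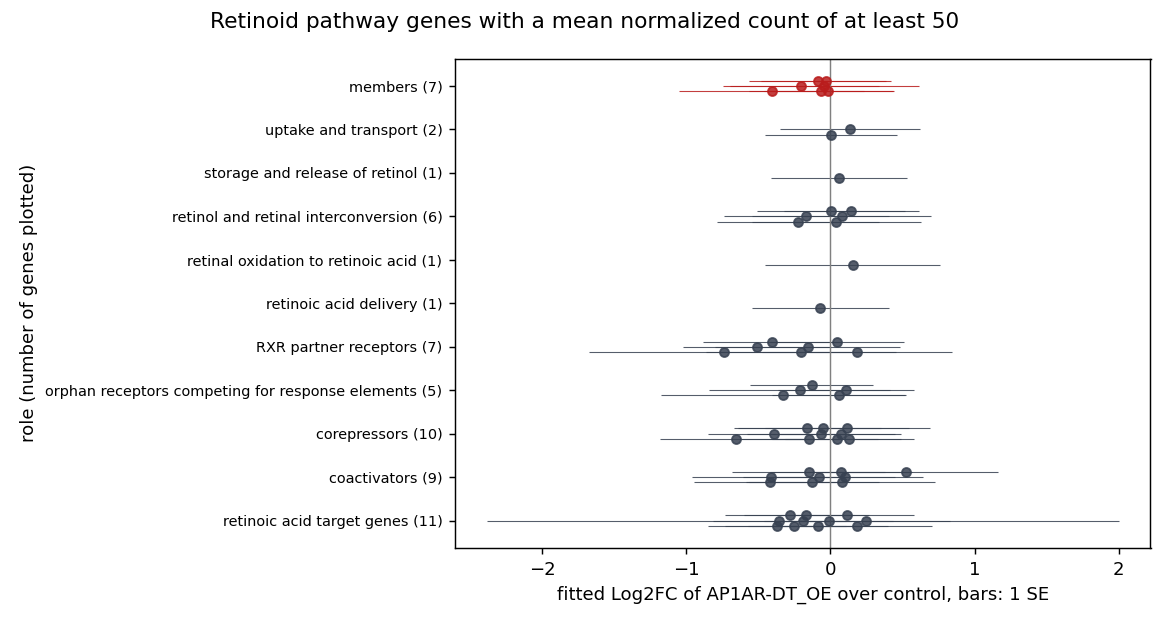
Log2FC of AP1AR-DT_OE over control, with bars of 1 SE, for the 7 members (red) and the 53 genes of the wider retinoid list of the same minimum mean (50 normalized counts), by role; a gene with 2 roles is drawn in the first. The 53 values run from -0.73 to 0.52 on both sides of 0 and none passed the test.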

How the data were processed

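RNA-seq of SK-N-SH cells with AP1AR-DT_OE (n = 2) or empty vector (n = 2) was analysed from the deposited read counts per gene. Per the paper's methods the authors aligned 150-bp paired reads to hg19 with HISAT2 and counted with StringTie and its Python script. The deposited counts are whole numbers whose totals differ between libraries, as raw counts do. The submitters' processing notes instead list TopHat2 2.0.4, SAMtools, HTSeq, Cuffdiff and edgeR 2.6.12. Strand use is not given in the sources used here. The table's gene coordinates are GRCh38 and are printed as given. Its columns of fold changes and p-values from the authors' own tests were not used.

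Low values piled up at 4 (3287 entries, against 2136 at 3 and 1509 at 5), so a read pair was taken as 4 counts and the floor as 3 pairs, 12 counts per library. Floors cover counting error only, since PCR reads are not independent molecules.

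All 24014 genes were tested with DESeq2 1.42.0 in R 4.3.3 (median-of-ratios size factors, two-sided Wald test, no covariate, Benjamini-Hochberg adjustment with independent filtering, threshold 0.05). Intervals are 95% Wald intervals. The length and GC content of each gene's longest transcript came from GENCODE v44 on GRCh37, matched by gene ID for 23954 genes. The GC correction removed a lowess trend with GC content (span 0.3) from the log2 ratio of every library to the average library. Alternatives were edgeR 4.0.16, TMM factors, a likelihood-ratio test, a filter of 10 counts in 2 libraries, no independent filtering, the replicate number as a block, the GC correction, counts divided by 4, and leaving out each library. Steps were tested on simulated counts without the differences by GC content and replicate number seen in these libraries. That test therefore does not cover those differences.

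The members, the wider list and the markers were chosen with earlier results of these data known. Named genes were all members, AP1AR-DT, every gene of the wider list passing a test, the 2 genes per role with the highest level per kilobase, and the nearest profile to each member. Some genes that this rule selects are not reported here. A gene that fell outside this rule (PRRX1, NR4A1, NR4A2, RDH10-AS1, RARA-AS1, CYP26A1, CYP26C1 and the list genes named in the closing section) was named after its values or its absence were seen.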

Additional observations from a re-analysis of the deposited data

How the results depend on the processing

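Under each of the 14 alternatives 0 members were called. At an unadjusted p under 0.05 0 passed, except CYP26B1 without AP1AR-DT_OE replicate 1 (a Log2FC of -6.37 that rests on 0 counts). The 33 genes called over the whole table became 0 under edgeR's quasi-likelihood fit, where 112 had an unadjusted p under 0.05,, 55 with the GC correction, 60 with the GC correction and the replicate block, 15 with counts divided by 4, and between 45 and 90 on leaving out each library, the most without control replicate 1. Of the wider list 0 genes were called under every alternative, but the count at an unadjusted p under 0.05 went from 0 to 5 without control replicate 2 (RARRES1, MED1, THRA, GPS2 and ADH5), to 2 with the GC correction and the replicate block (MED1 and GPS2) and to 1 without AP1AR-DT_OE replicate 2 (RBP7). The count of members below 0 went from 8 to 6 with the replicate block in either tool and lay between 2 and 8 on leaving out each library.

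The 2 groups share replicate numbers, and the labels do not say what a number marks. Deviations of same-numbered libraries from their group means had a correlation of 0.49 over 13298 genes. With the replicate block, 37 genes were called by DESeq2 and 44 by edgeR, 0 of them members, and only RARA and CRABP1 changed sign among the member values.

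Leaving out a library turned the sign of each member. Without control replicate 2, RARA came to -0.52, RXRA to -0.67, RARG to -0.42 and RARB to 0.45. Leaving out the other control gave 0.62, 0.50, 0.35 and -0.94 in the same order. RARB came to -0.08 and -0.86 without AP1AR-DT_OE replicates 1 and 2, and under the alternatives that kept all 4 libraries it lay between -0.44 and -0.23. With 2 libraries a group, SEs of 0.45 to 0.66 for the 7 abundant members in the main fit limit what could be detected. With the GC correction these SEs were 0.24 to 0.47, and 0 members were called. Where a library is left out, the lone library of its group is assumed to vary like the other group. The cause of these shifts was not tested.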

Other observations

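Nuclear receptor genes of the NR4A family, immediate-early genes whose products can pair with RXR, differed between the replicate numbers in both groups, as EGR1 did. These genes were picked after their values were seen. NR4A1 had 641 and 2333 normalized counts in controls 1 and 2 and 706 and 1961 in AP1AR-DT_OE 1 and 2, a ratio of library 2 to library 1 of 3.64 in control and 2.78 in AP1AR-DT_OE. NR4A2 had 26.2, 214, 25.2 and 119, ratios of 8.16 and 4.72, and EGR1 had ratios of 24.5 and 22.3. Among the 13298 genes whose mean normalized count reached 50, the ratio of EGR1 stood at the 99.7th percentile in both groups and that of NR4A1 at the 95.6th and 96.6th. With 59.8% GC, NR4A1 lay in the range of GC content where most genes, RARG and RXRA among them, had ratios below 1, so its direction was opposite to the trend with GC content in these libraries. What the replicate numbers stand for is not given in the sources used here.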
